A study of Homo sapiens with 2 samples.

Results

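Splicing regulators are RNA-binding proteins that decide which exons of a pre-mRNA are kept. The 176 gene entries described here comprise the genes of the serine/arginine-rich (SR) splicing factors, those named for heterogeneous nuclear ribonucleoproteins (hnRNPs), and 15 further regulators: ESRP1, ESRP2, RBFOX2, MBNL1, MBNL2, PTBP1, PTBP2, PTBP3, QKI, CELF1, TRA2A, TRA2B, KHDRBS1, TIA1 and TIAL1. They were chosen by gene name from the 57110 entries of the transcript annotation, with no measured value in the rule itself, although earlier results of these data were known when the set was proposed. The set holds 12 SR genes, 23 hnRNP genes, 123 hnRNP pseudogenes, the 15 further regulators and 3 entries in which an hnRNP gene or pseudogene is joined to overlapping genes. Of these 176 entries, 53 had a count in the cells compared, and 45 reached the minimum of 50 counts for a comparison of levels.

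The study pooled 3 human cell lines from ovarian cancer and sequenced single cells. These were COV504, IGROV1 and SK-OV-3, taken at equal cell numbers, and the aim was to benchmark transcript quantification from single cells. The Illumina group held 1 library, whose expression values were not analysed here, and the PromethION group held 1 library, read as whole cDNA molecules on a nanopore instrument. All 2462 barcodes of the PromethION matrix are also listed for the Illumina library, so the libraries share their cells and are not replicates. The cells had no treatment named in the labels, and the files name no line for a cell. Barcodes with at least 1000 counts were therefore put in 3 classes by marker genes, where 1 set held at least 75% of the marker counts: ERBB2, NNMT, TSPAN1 and DHRS2 (ERBB2-high, 648 cells), RARRES2 and TMEM100 (RARRES2-high, 473 cells), or FOLR1, CLDN3, DEFB1 and CXCL14 (FOLR1-high, 765 cells). Of 2462 barcodes, 333 had fewer counts and 243 had no such leading set. A leading share from 70% up to 75% was found in 39 barcodes and one from 75% up to 80% in 85. The classes held 3442383, 3377992 and 4514999 counts, with medians of 4953, 6262 and 5289 per cell. The ERBB2-high cells were also the class with the highest levels of 4 neighbours of ERBB2 that the rule did not use, such as STARD3 at 214 counts per 1000000 counts of the class (CPM) against 22.2 and 13.3. CDKN2A, which SK-OV-3 lacks, was at 0.29, 0 and 19.5 CPM in ERBB2-high, RARRES2-high and FOLR1-high cells, so it does not tell ERBB2-high from RARRES2-high cells. No class is given the name of a line here; each is called a line by its markers. Epithelial and mesenchymal markers were mixed in each: EPCAM was at 36.3, 105 and 106, KRT8 at 349, 1972 and 214, KRT18 at 552, 4784 and 1146, KRT19 at 631, 487 and 1679 and CLDN4 at 5.52, 6.81 and 3.32 CPM in that order, and VIM at 4671, 1399.9 and 2031, CDH2 at 35.7, 80.8 and 1.33, ZEB1 at 103, 26.6 and 29.5 and FN1 at 182, 149 and 5.76. Of the ovarian lineage markers, PAX8 was at 101, 95 and 143, WT1 at 0.29, 0 and 2.88 and MUC16 at 0, 13.6 and 0.664 CPM. Of 8 markers of blood, endothelial and liver cells, CD3E, LYZ and ALB had no count and PTPRC, HBB and PECAM1 stayed under 2 CPM in every class, CDH5 reached 30.5 CPM in RARRES2-high cells, and CD68 lies in an entry joined to other genes. With 1 library there is no replicate, no test between conditions and no p-value. Every interval is a 95% interval (Poisson for levels, Clopper-Pearson for shares) and covers counting error only, not the error of dividing reads between transcripts.

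SR proteins bind exonic enhancer sequences and generally favour inclusion of the exon, whereas many hnRNPs bind silencers and favour skipping. The pre-mRNAs of these regulators are themselves spliced in several ways, and many regulators control their own transcripts. ESRP1 and ESRP2 are epithelial regulators. RBFOX2, MBNL1, MBNL2, QKI and CELF1 bind short motifs near alternative exons and shift splicing during differentiation, and the PTBP proteins bind pyrimidine-rich tracts. Long reads bear on both aspects, since they give the level of each gene and the exons joined in each molecule.

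Of the alternative coding segments of the members, 7 are printed, because they are the 5 whose use differed between 2 lines by at least 15 percentage points with intervals apart, and the next 2 by size of difference. A segment is an exon or a part of one that some listed transcripts contain and others splice out. Each is shown 5′ to 3′ in capitals between the coding bases next to it in the spliced transcript, from GENCODE release 29 (GRCh38). After the 4 segments of HNRNPA2B1, HNRNPC, HNRNPH3 and SRSF7, the second line of a pair is the same stretch with the segment spliced out.
HNRNPA2B1, whole exon of 36 bases (chr7:26197831-26197866, minus strand): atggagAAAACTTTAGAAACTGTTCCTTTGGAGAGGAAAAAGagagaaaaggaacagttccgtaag
HNRNPA2B1, spliced out: atggagagagaaaaggaacagttccgtaag
HNRNPC, exon part of 39 bases (chr14:21230958-21230996, minus strand): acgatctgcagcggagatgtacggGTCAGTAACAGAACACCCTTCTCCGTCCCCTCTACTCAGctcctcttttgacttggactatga
HNRNPC, spliced out: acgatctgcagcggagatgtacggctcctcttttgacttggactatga
HNRNPH3, exon part of 45 bases (chr10:68338643-68338687, plus strand): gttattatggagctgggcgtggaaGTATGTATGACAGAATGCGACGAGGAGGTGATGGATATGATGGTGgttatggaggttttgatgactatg
HNRNPH3, spliced out: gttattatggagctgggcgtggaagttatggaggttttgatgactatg
SRSF7, whole exon of 36 bases (chr2:38746144-38746179, minus strand): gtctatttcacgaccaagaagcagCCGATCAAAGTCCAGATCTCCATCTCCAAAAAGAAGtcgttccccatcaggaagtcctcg
SRSF7, spliced out: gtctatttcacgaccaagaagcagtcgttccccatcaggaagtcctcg
RBFOX2, exon part of 3 bases (chr22:35781744-35781746, minus strand): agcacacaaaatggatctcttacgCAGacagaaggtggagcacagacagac
RBFOX2, exon part of 12 bases (chr22:35760021-35760032, minus strand): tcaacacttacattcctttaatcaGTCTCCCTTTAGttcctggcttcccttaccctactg
RBFOX2, whole exon of 40 bases (chr22:35756105-35756144, minus strand): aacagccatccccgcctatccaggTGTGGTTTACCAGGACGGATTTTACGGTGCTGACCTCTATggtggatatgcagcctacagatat

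The clearest difference lay in HNRNPA2B1, which makes the A2 protein or, with the 36-base exon, the B1 protein, whose N-terminus is longer. Inclusion of the exon was 11.6% (10.3 to 12.9) of 2417 counts in ERBB2-high, 34.6% (32.8 to 36.5) of 2525 counts in RARRES2-high and 8.89% (7.86 to 10.03) of 2753 counts in FOLR1-high cells. RARRES2-high cells stood above both other lines, by 23.1 percentage points over ERBB2-high and 25.7 over FOLR1-high cells, and the intervals did not overlap. The whole gene HNRNPA2B1 was at 702, 747 and 609.7 CPM, with no pair past the 1.5-fold limit for levels. Inclusion was 33.6% in the RARRES2-high cells with a marker share of 90% or more and 36% in the rest of that line, so both parts of the line stood apart from the other 2.

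Because the deposited counts are estimates that divide a read between transcripts it cannot tell apart, inclusion was also read from cells with a single count of the gene that lay whole on 1 transcript. In that much smaller set the HNRNPA2B1 exon was present in 3 of 56, 8 of 33 and 2 of 78 counts in ERBB2-high, RARRES2-high and FOLR1-high cells, in the same order as over all counts. The interval of RARRES2-high cells was apart from that of FOLR1-high but overlapped that of ERBB2-high cells.

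HNRNPC encodes the C1 protein or, with 39 more bases at the end of an exon, the C2 protein, both components of the hnRNP core particle. Inclusion of that part was 26.4% (23.7 to 29.1) of 1082 counts in ERBB2-high, 38.4% (35.9 to 40.9) of 1476 counts in RARRES2-high and 17.4% (15.7 to 19.2) of 1846 counts in FOLR1-high cells. The 3 intervals were apart from one another, and RARRES2-high exceeded FOLR1-high cells by 21.0 points. Few single counts named 1 HNRNPC transcript (4 of 38, 2 of 7 and 4 of 33 with the segment in the 3 lines), too few to order them. When only whole estimates were kept, the difference was 13.8 points and under the 15-point limit. In HNRNPH3, a relative of the hnRNP H and F proteins that bind G-rich RNA, inclusion of a 45-base exon part was 77.8% (73.7 to 81.6) of 442 counts in ERBB2-high, 59.6% (55.3 to 63.9) of 523 counts in RARRES2-high and 70.2% (65.2 to 74.6) of 381 counts in FOLR1-high cells. Here RARRES2-high cells were the lowest, 18.2 points under ERBB2-high cells. Single counts held it in 113 of 137, 53 of 98 and 107 of 143 cases, and the difference between those 2 lines was 28.4 points there. All 3 of these segments have a length divisible by 3.

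In the 3 short coding segments of RBFOX2, FOLR1-high cells stood at 1 end of each. The segments are read from the same transcripts, so their differences are not independent. ENST00000405409 alone held 59.6% of the RBFOX2 counts in ERBB2-high and 77.1% in FOLR1-high cells. Inclusion of a 3-base part was 66% (59.1 to 72.5) of 206 counts in ERBB2-high, 70.5% (60.7 to 79.4) of 99 counts in RARRES2-high and 83.4% (76.5 to 89.4) of 141 counts in FOLR1-high cells. A 12-base part was included at 24.7% (19 to 31.2) of 206 counts in ERBB2-high, 18% (11.1 to 27.2) of 99 counts in RARRES2-high and 8.49% (4.48 to 14.4) of 141 counts in FOLR1-high cells. Both differed past the limit between ERBB2-high and FOLR1-high cells, in opposite directions, on few counts, and the ERBB2-high and FOLR1-high intervals were separated by under 5 points in each. In single counts the differences were 10.6 and 8.87 points in the same directions, both under the limit. The 40-base exon was included at 35.4% (28.9 to 42.4) of 206 counts in ERBB2-high, 34.1% (25.1 to 44.6) of 99 counts in RARRES2-high and 22.5% (16.1 to 30.5) of 141 counts in FOLR1-high cells, with overlapping intervals. SRSF7, an SR protein with a zinc knuckle, skipped its 36-base exon most often in ERBB2-high cells: inclusion was 78% (75.8 to 80.1) of 1445 counts in ERBB2-high, 87.3% (85.2 to 89.3) of 1057 counts in RARRES2-high and 90.3% (88.5 to 91.9) of 1187 counts in FOLR1-high cells. That difference of 12.3 points between ERBB2-high and FOLR1-high was under the 15-point limit, although the intervals did not overlap, and single counts held the exon in 98 of 122, 71 of 82 and 162 of 171 cases in the 3 lines.

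By the limit of 15 points with intervals apart, alternative segments differed in 2 of 28 members compared between ERBB2-high and RARRES2-high cells (HNRNPA2B1 and HNRNPH3), in 1 of 29 between ERBB2-high and FOLR1-high cells (RBFOX2) and in 2 of 28 between RARRES2-high and FOLR1-high cells (HNRNPA2B1 and HNRNPC). Over all genes with such segments the limit was passed by 2.12%, 1.22% and 2.71% of genes in these pairs. With 1 or 2 genes called, the members' share cannot be told from that background. The median of the members' largest difference was 3.01, 3.33 and 2.91 points, against 2.30, 2.29 and 2.40 over all genes.

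**Figure D1:**
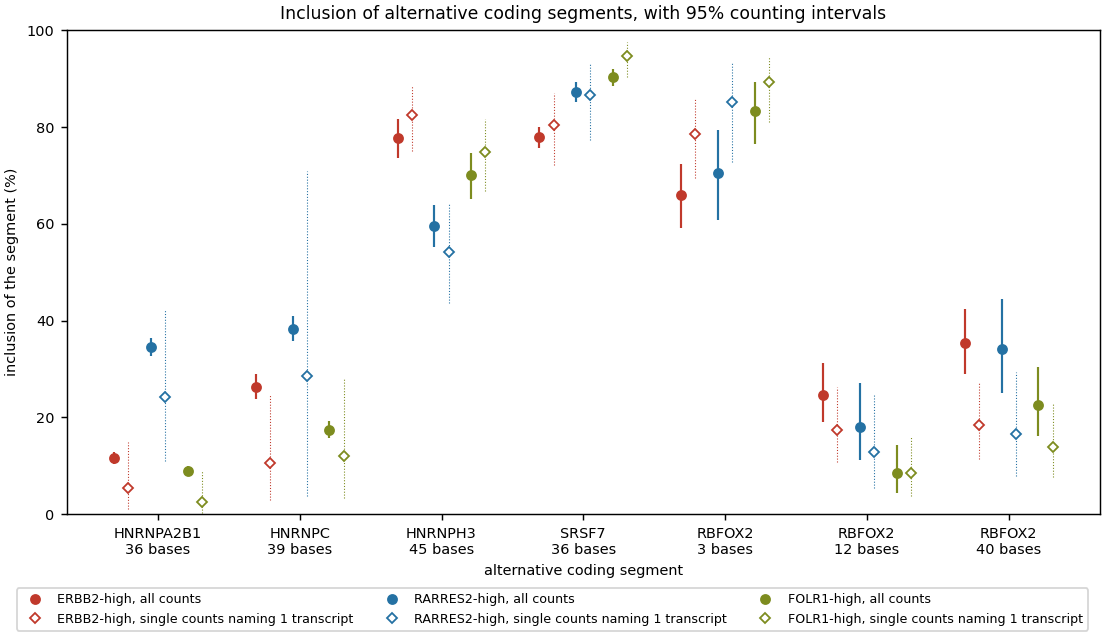
Inclusion in percent of 7 alternative coding segments (horizontal axis) in the 3 lines; filled circles give all estimated counts with solid 95% intervals, open diamonds the single counts that name 1 transcript with dotted intervals. The HNRNPA2B1 exon stands at 34.6% in RARRES2-high cells and at 11.6% or lower in the other 2 lines, and the dotted intervals are wide for HNRNPC.

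Whole transcripts differed past the same limit in 2 of 34, 1 of 35 and 4 of 34 members in the 3 pairs in the same order, against 4.29%, 3.55% and 5.39% of all genes. Besides the genes above these were HNRNPF and SRSF5, both between RARRES2-high and FOLR1-high cells, and both mainly among transcripts of equal coding length. HNRNPF, a G-tract binder, has 5 listed transcripts with different start positions and a coding length of 1245 bases each, and the share of ENST00000357065 was 32.9% (29.3 to 36.6) in ERBB2-high, 27.2% (22.7 to 31.9) in RARRES2-high and 45.6% (42.2 to 49.1) in FOLR1-high cells. SRSF5 put nearly all counts on 3 transcripts with a coding length of 816 bases, and the share of ENST00000394366 was 11.7% (9.16 to 14.5) in ERBB2-high, 24.5% (19.8 to 30.1) in RARRES2-high and 8.7% (6.42 to 11.5) in FOLR1-high cells. Of the single counts of SRSF5, 17 of 205, 25 of 127 and 12 of 209 lay whole on that transcript in the 3 lines. The difference between RARRES2-high and FOLR1-high cells was 13.9 points of all single counts, under the limit. Of the single counts that named 1 transcript it was 27.8 points on 33 and 25 counts, with overlapping intervals, so the SRSF5 difference was past the limit with intervals apart by neither reading. For the HNRNPF transcript the same readings gave 19.3 and 37.2 points, FOLR1-high over RARRES2-high cells, both with intervals apart. FOLR1-high cells were thus at the high end for the HNRNPF transcript and at the low end for the SRSF5 one.

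Of the 10 members whose share of any transcript differed most between lines, HNRNPK, a poly(C)-binding hnRNP, differed by 12.4 points (ENST00000376263, 29.3% (26.9 to 31.9) in ERBB2-high, 19.6% (17.2 to 22.2) in RARRES2-high and 32% (29.4 to 34.8) in FOLR1-high cells). SRSF7 differed by 12.3, TIA1, an RNA-binding protein of stress granules, by 8.97 and HNRNPA3 by 8.40 points. These are under the limit, as are all lower ranks. In the other direction, SRSF3 put 99.8% (99.5 to 99.96), 99.9% (99.5 to 99.98) and 99.8% (99.4 to 99.9) of its counts on 1 transcript. KHDRBS1, which encodes the signalling-responsive regulator Sam68, put 99.7% (98.8 to 99.96), 99.9% (98.7 to 99.99) and 99.99% (99.3 to 100) on 1 transcript. TRA2B, an SR-like activator, gave its leading transcript 88% (83.9 to 91.1), 87.1% (82.7 to 90.5) and 87.5% (83 to 91) of counts. The largest difference was 0.849 points or lower in these 3 genes and 2.61 points in PTBP3, so their transcript use was close in the 3 lines at this depth. Of all counts of the members, 99.8% lay on transcripts annotated as protein coding.

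MBNL1 and MBNL2 carry a related alternative exon of 36 bases, identical at 31 positions (86.1%). They are shown to let the 2 exons be compared base by base.
MBNL1 (chr3:152455542-152455577, plus strand): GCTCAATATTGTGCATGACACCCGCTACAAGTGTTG
MBNL2 (chr13:97365136-97365171, plus strand): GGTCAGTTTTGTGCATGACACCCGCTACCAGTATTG
All bases are in capitals because only the exon is printed. Inclusion in MBNL1 was 44.2% (37.9 to 50.6) of 249 counts in ERBB2-high, 46.9% (41.5 to 52.4) of 341 counts in RARRES2-high and 40.2% (31.7 to 49) of 132 counts in FOLR1-high cells. In MBNL2 it was 56.1% (50.1 to 62.2) of 272 counts in ERBB2-high, 53.5% (44 to 62.5) of 120 counts in RARRES2-high and 57.4% (49 to 65.2) of 152 counts in FOLR1-high cells. The intervals of the 3 lines overlapped within each gene, and within each line those of the 2 genes overlapped as well, in FOLR1-high cells only at 49%. Hardly any single count named 1 transcript (5 for MBNL1 and 10 for MBNL2 over the lines), so these shares rest almost wholly on estimates that divide reads between transcripts.

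Gene levels were compared as CPM of counts summed per line. A member was called where 2 lines differed at least 1.5-fold and their intervals did not overlap. The members as a group held 0.822% of all counts in ERBB2-high, 0.685% in RARRES2-high and 0.672% in FOLR1-high cells. Of the 45 members compared, 16 were higher in ERBB2-high than in RARRES2-high cells (all genes: 29.2%) and 2 were lower (18.0%). Between ERBB2-high and FOLR1-high cells, 23 were higher in ERBB2-high (38.1%) and 1 in FOLR1-high cells (12.8%). Between RARRES2-high and FOLR1-high cells, 6 were higher in each line (30.1% and 17.2%). As a share of 45, the counts are 35.6%, 4.44%, 51.1%, 2.22%, 13.3% and 13.3%. The members' shares are above the background for ERBB2-high cells against either line, below it in the 4 other directions.

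These counts depend on the scaling. Mitochondrial transcripts took 2.93%, 3.11% and 7.07% and ribosomal protein genes 11.9%, 15% and 26.6% of the counts of ERBB2-high, RARRES2-high and FOLR1-high cells, and they enter the total that CPM divides by. The median log2 ratio over all genes was 0.22, 0.46 and 0.20 in the 3 pairs. For the members it was 0.42, 0.59 and 0.09. TMM scaling, which matches the bulk of genes between lines, moved every log2 ratio by -0.21, -0.41 and -0.19. Under it, 11 members were higher in ERBB2-high and 4 in RARRES2-high cells, 6 in ERBB2-high and 5 in FOLR1-high cells, and 3 in RARRES2-high and 9 in FOLR1-high cells. The members' medians became 0.21, 0.19 and -0.10, so the median between RARRES2-high and FOLR1-high cells changed sign. As shares of 45 these are 24.4% and 8.89%, 13.3% and 11.1%, and 6.67% and 20%, against 22.3% and 23.2%, 22.2% and 21.0%, and 24.2% and 22.5% of all genes. Under this scaling the members' share was near the background for members higher in ERBB2-high than in RARRES2-high cells and for those higher in FOLR1-high than in RARRES2-high cells, and below it in the other directions. In any pair, 31 members (68.9%) were called on CPM, against 74.4% of all genes. In the same direction and pair under both scalings 19 were called (42.2%), against 63.4% of all genes. Counted over any pair, the members were thus called no more often than genes in general. Below, higher and lower without a further word refer to these for single members, while counts by list name their scaling.

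**Figure D2:**
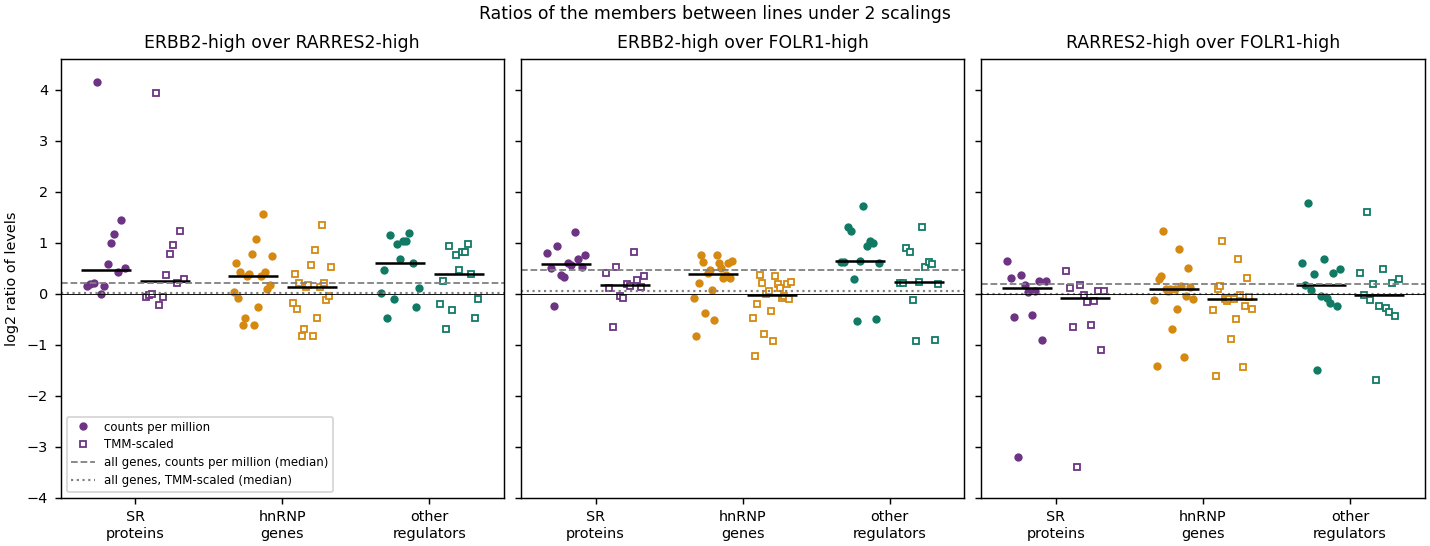
Log2 ratio of each compared SR, hnRNP and other member in the 3 pairs of lines (vertical axis); filled circles are ratios of CPM, open squares TMM-scaled ratios, black bars the medians of each group, and grey lines the medians of all genes. SRSF12 had no count in RARRES2-high cells and is drawn against a floor of 3 counts there. The squares sit lower than the circles in each panel, and most in the middle one.

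All 12 SR genes had counts in the lines and were compared, and 8 were called in at least 1 pair, 4 of them under both scalings (66.7% and 33.3%, against 74.4% and 63.4% of all genes). SRSF12, a serine/arginine-rich protein that can act against the other SR proteins (gene at chr6:89095959-89118081), was at 15.7 CPM (11.8 to 20.5) in ERBB2-high, 0 CPM (0 to 1.09) in RARRES2-high and 8.19 CPM (5.77 to 11.3) in FOLR1-high cells. RARRES2-high cells had 0 counts, and against a floor of 3 counts in that line SRSF12 was at least 17.7-fold higher in ERBB2-high and at least 9.23-fold higher in FOLR1-high cells (at least 15.2-fold and 10.6-fold after TMM scaling). The 54 and 37 counts of the other 2 lines do not overlap with the interval of RARRES2-high cells.

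SRSF6, an SR protein with a pair of RNA recognition motifs, was at 80.5 CPM (71.3 to 90.5) in ERBB2-high, 35.8 CPM (29.7 to 42.8) in RARRES2-high and 34.6 CPM (29.3 to 40.4) in FOLR1-high cells. ERBB2-high cells were 2.25-fold (1.81 to 2.8) above RARRES2-high and 2.33-fold (1.91 to 2.85) above FOLR1-high cells (1.94-fold and 1.76-fold after TMM scaling), and the other 2 lines overlapped. SRSF5 was at 169.7 CPM (156 to 184) in ERBB2-high, 85.3 CPM (75.7 to 95.7) in RARRES2-high and 115 CPM (105 to 125) in FOLR1-high cells, 1.99-fold (1.72 to 2.3) higher in ERBB2-high than in RARRES2-high cells. SRSF8 was at 18.6 CPM (14.3 to 23.7) in ERBB2-high, 6.81 CPM (4.32 to 10.2) in RARRES2-high and 12.8 CPM (9.75 to 16.6) in FOLR1-high cells, 2.73-fold (1.67 to 4.61) higher in ERBB2-high than in RARRES2-high cells. RARRES2-high cells thus had the lowest value for SRSF5, SRSF8 and SRSF12. Only SRSF12 was called lower there than in both other lines under both scalings.

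SRSF1, SRSF4, SRSF7 and SRSF9 were called in 1 or 2 pairs on CPM only, with ratios from 1.52 (SRSF4, ERBB2-high over FOLR1-high) to 1.75 (SRSF1, the same pair), and in none after TMM scaling. SRSF1, a widely expressed SR protein, was at 95.6, 85.6 and 54.7 CPM in ERBB2-high, RARRES2-high and FOLR1-high cells. SRSF4 was at 180.1, 121 and 118 CPM, SRSF7 at 419.8, 313 and 263 CPM and SRSF9 at 70.9, 49.7 and 42.1 CPM. SRSF2, SRSF3, SRSF10 and SRSF11 were in no pair past 1.5-fold on CPM; after TMM scaling SRSF11 was 1.57-fold and 1.57-fold higher in FOLR1-high than in ERBB2-high and RARRES2-high cells. Just outside and just inside the limit lay SRSF4 over RARRES2-high (1.49-fold) and over FOLR1-high cells (1.52-fold).

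**Figure D3:**
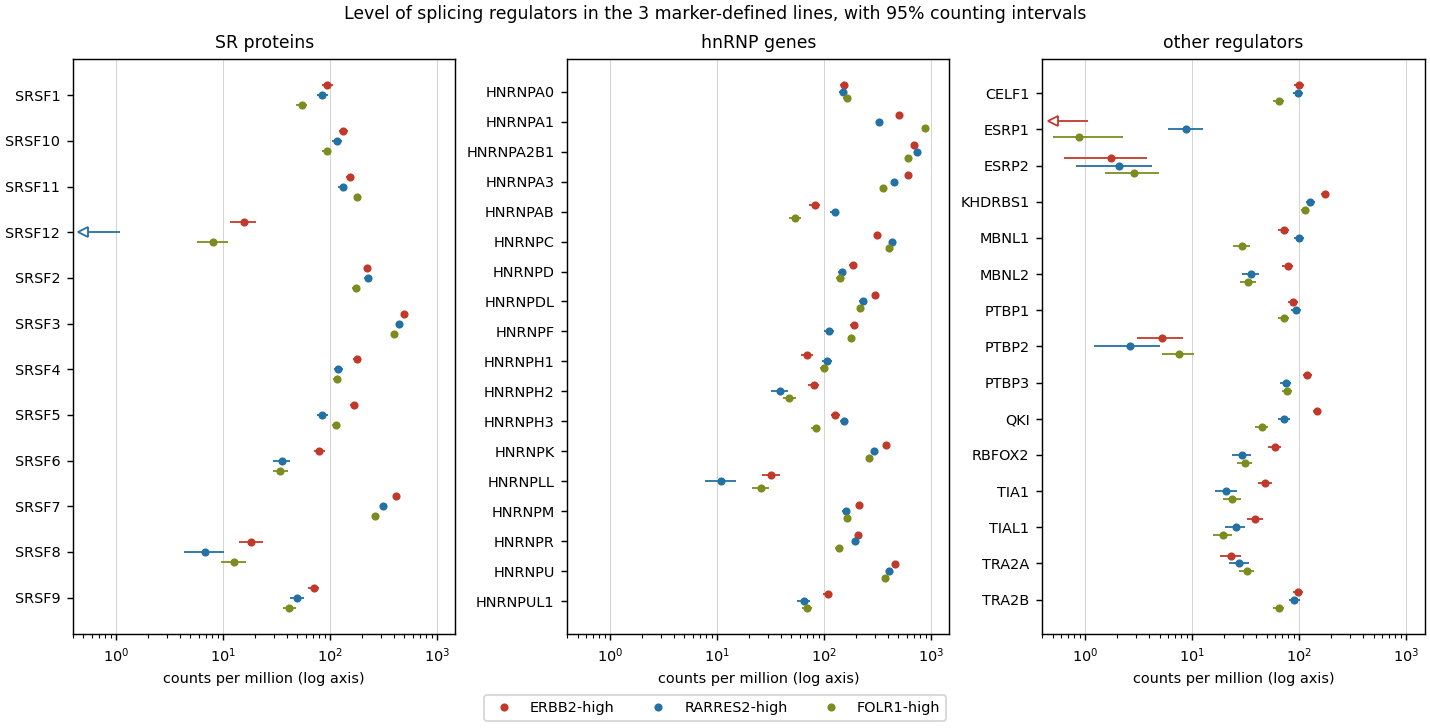
Level in CPM (log axis) of the compared SR and hnRNP genes and of the 15 further regulators in ERBB2-high (red), RARRES2-high (blue) and FOLR1-high (green) cells, with 95% Poisson intervals. Open triangles mark a line with 0 counts. HNRNPA1 is highest in FOLR1-high cells, QKI and MBNL2 in ERBB2-high cells, and MBNL1 lowest in FOLR1-high cells.

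Of the 23 hnRNP genes, 19 had counts, 18 were compared, 10 were called and 7 were called under both scalings (55.6% and 38.9% of those compared, against 74.4% and 63.4% of all genes). HNRNPA1, an abundant hnRNP that favours distal splice sites (gene at chr12:54280193-54287087), was the only member higher in FOLR1-high than in ERBB2-high cells on CPM. It was at 500.5 CPM (477 to 525) in ERBB2-high, 329.8 CPM (311 to 349.7) in RARRES2-high and 884 CPM (856 to 911) in FOLR1-high cells. FOLR1-high cells were 1.77-fold (1.67 to 1.87) above ERBB2-high and 2.68-fold (2.51 to 2.87) above RARRES2-high cells, and TMM scaling widened this to 2.34-fold and 3.06-fold. HNRNPA1 has many processed copies in the genome, and a read from one could be placed in another. The 123 pseudogene entries of hnRNP genes held 34 counts in all in 5 entries, 23 of them in HNRNPA1P48, and HNRNPA1L2, an expressed copy, held 7.

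HNRNPAB, a nucleic acid-binding relative of hnRNP A and B proteins, was at 82.8 CPM (73.5 to 93) in ERBB2-high, 127 CPM (116 to 139.9) in RARRES2-high and 54 CPM (47.5 to 61.3) in FOLR1-high cells. RARRES2-high cells were 1.54-fold (1.32 to 1.79) above ERBB2-high and 2.36-fold (2.01 to 2.77) above FOLR1-high cells. HNRNPH1, a binder of G-runs, was at 70.3 CPM (61.7 to 79.7) in ERBB2-high, 107 CPM (96.4 to 119) in RARRES2-high and 101 CPM (91.5 to 110.2) in FOLR1-high cells, 1.52-fold (1.29 to 1.8) higher in RARRES2-high than in ERBB2-high cells. These 2 genes were the only members higher in RARRES2-high than in ERBB2-high cells on CPM; TMM scaling added HNRNPC and MBNL1. HNRNPAB and HNRNPH1 lay close to the limit: at a marker share of 90% HNRNPAB was 1.39-fold and HNRNPH1 1.54-fold higher in RARRES2-high cells, and at 60% they were 1.47-fold and 1.48-fold higher, so 1 and then neither was called. The H and F family did not move as one. HNRNPH2, on the X chromosome, was at 81, 38.8 and 47.8 CPM in ERBB2-high, RARRES2-high and FOLR1-high cells, 2.09-fold (1.69 to 2.59) higher in ERBB2-high than in RARRES2-high cells and so opposite to HNRNPH1. HNRNPF was at 192, 112 and 182 CPM, 1.61-fold (1.43 to 1.83) higher in FOLR1-high than in RARRES2-high cells. HNRNPH3 was at 128, 155 and 84.4 CPM, 1.83-fold (1.6 to 2.1) higher in RARRES2-high than in FOLR1-high cells. HNRNPH1 and HNRNPH2 are close in sequence, so reads could be exchanged between them.

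HNRNPLL, which controls alternative exons in lymphocytes, was at 32.2 CPM (26.5 to 38.8) in ERBB2-high, 11 CPM (7.71 to 15.1) in RARRES2-high and 25.9 CPM (21.4 to 31.1) in FOLR1-high cells. RARRES2-high cells were the lowest line, 2.94-fold (2.01 to 4.39) under ERBB2-high and 2.37-fold (1.62 to 3.52) under FOLR1-high cells. HNRNPA3, HNRNPR and HNRNPUL1 were called on CPM only, at ratios of ERBB2-high over FOLR1-high cells from 1.51 to 1.70. Their levels were 608, 453 and 357 CPM for HNRNPA3, 209.7, 197 and 139 CPM for HNRNPR and 109, 65.1 and 70.2 CPM for HNRNPUL1 in ERBB2-high, RARRES2-high and FOLR1-high cells. HNRNPA0, HNRNPA2B1, HNRNPC, HNRNPD, HNRNPDL, HNRNPK, HNRNPM and HNRNPU passed the limit in no pair on CPM; after TMM scaling HNRNPC was 1.61-fold and 1.73-fold higher in RARRES2-high and FOLR1-high than in ERBB2-high cells. HNRNPCL1, HNRNPCL2, HNRNPCL3 and HNRNPCL4 had no count.

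HNRNPL and HNRNPUL2 are listed only within entries that join overlapping genes. The transcripts annotated to HNRNPL, a CA-repeat binder, were at 35.8 CPM (29.7 to 42.6) in ERBB2-high, 21 CPM (16.4 to 26.5) in RARRES2-high and 29.8 CPM (25.1 to 35.4) in FOLR1-high cells, which was 18.7%, 22.3% and 14.4% of their joined entry with ECH1. That entry as a whole was 2.03-fold higher in ERBB2-high and 2.19-fold higher in FOLR1-high than in RARRES2-high cells, so most of its difference lay outside HNRNPL transcripts. The HNRNPUL2 transcript was at 107 CPM (96.8 to 119) in ERBB2-high and 78.5 CPM (69.3 to 88.5) in RARRES2-high cells. In FOLR1-high cells it was at 43.1 CPM (37.3 to 49.7), and these intervals did not overlap. It made up 64.1%, 56.6% and 44.6% of its entry shared with BSCL2 in ERBB2-high, RARRES2-high and FOLR1-high cells. As a whole, that entry was called on CPM only, at 1.74-fold in ERBB2-high over FOLR1-high cells (1.31-fold after TMM scaling). The call is for the entry, and the transcript alone was not tested against the limit under either scaling. The remaining joined entry, with the pseudogene HNRNPMP2, had no count.

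Of the 15 further regulators, 13 were compared, 11 were called and 7 were called under both scalings (84.6% and 53.8% of those compared, against 74.4% and 63.4% of all genes). QKI, a STAR-family protein that promotes circular RNAs and mesenchymal-type exons (gene at chr6:163414643-163578596), was at 149 CPM (137 to 163) in ERBB2-high, 73.1 CPM (64.3 to 82.8) in RARRES2-high and 45.4 CPM (39.4 to 52.1) in FOLR1-high cells. The 3 intervals did not overlap. ERBB2-high cells were 2.04-fold (1.75 to 2.39) above RARRES2-high and 3.29-fold (2.79 to 3.89) above FOLR1-high cells (1.76-fold and 2.48-fold after TMM scaling). MBNL1, a muscleblind protein (gene at chr3:152268040-152465780), was at 72.3 CPM (63.6 to 81.9) in ERBB2-high, 101 CPM (90.5 to 112) in RARRES2-high and 29.2 CPM (24.5 to 34.7) in FOLR1-high cells. It was highest in RARRES2-high cells and 3.45-fold (2.82 to 4.25) higher there than in FOLR1-high cells, which were also 2.47-fold (2.0 to 3.08) under ERBB2-high cells. Its paralog MBNL2 was at 79 CPM (69.9 to 89) in ERBB2-high, 35.5 CPM (29.5 to 42.5) in RARRES2-high and 33.7 CPM (28.5 to 39.5) in FOLR1-high cells, 2.22-fold (1.79 to 2.78) and 2.35-fold (1.92 to 2.88) higher in ERBB2-high cells than in the other 2, whose intervals overlapped. The muscleblind pair thus had different orders: RARRES2-high cells were the highest line for MBNL1 and shared the low level of MBNL2.

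RBFOX2, which binds GCAUG, was at 59.8 CPM (51.9 to 68.6) in ERBB2-high, 29.3 CPM (23.8 to 35.7) in RARRES2-high and 31.2 CPM (26.3 to 36.8) in FOLR1-high cells. It was 2.04-fold (1.6 to 2.62) higher in ERBB2-high than in RARRES2-high cells; the 1.92-fold (1.54 to 2.39) difference from FOLR1-high cells fell under the limit after TMM scaling (1.44-fold). TIA1, which binds U-rich sequence after 5′ splice sites, was at 48.2 CPM (41.2 to 56.1) in ERBB2-high, 21 CPM (16.4 to 26.5) in RARRES2-high and 23.7 CPM (19.4 to 28.6) in FOLR1-high cells, 2.29-fold (1.73 to 3.07) and 2.03-fold (1.59 to 2.62) higher in ERBB2-high cells than in the other 2. Its relative TIAL1 was at 38.9 CPM (32.6 to 46.1) in ERBB2-high, 25.8 CPM (20.6 to 31.8) in RARRES2-high and 19.5 CPM (15.6 to 24) in FOLR1-high cells, with the same line highest, 2.0-fold (1.51 to 2.64) above FOLR1-high cells. PTBP2, the PTB protein of neurons, was low, at 5.23 CPM (3.1 to 8.26) in ERBB2-high, 2.66 CPM (1.22 to 5.06) in RARRES2-high and 7.53 CPM (5.22 to 10.5) in FOLR1-high cells, and FOLR1-high cells were 2.83-fold (1.33 to 6.7) above RARRES2-high cells on 34 against 9 counts.

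PTBP1, the PTB protein of most dividing cells, passed the limit in no pair: it was at 88.3 CPM (78.7 to 98.8) in ERBB2-high, 94.7 CPM (84.6 to 106) in RARRES2-high and 72.2 CPM (64.6 to 80.5) in FOLR1-high cells. PTBP3 was at 121, 75.5 and 77.7 CPM in ERBB2-high, RARRES2-high and FOLR1-high cells and was called on CPM only, as were CELF1 (99.6, 98.6 and 64.9 CPM), KHDRBS1 (176, 128 and 114 CPM) and TRA2B (97.9, 90.9 and 64.9 CPM). TRA2A was at 23.2 CPM (18.4 to 28.9) in ERBB2-high, 27.8 CPM (22.5 to 34.1) in RARRES2-high and 32.8 CPM (27.7 to 38.5) in FOLR1-high cells; it passed no limit on CPM, and after TMM scaling it was 1.87-fold higher in FOLR1-high than in ERBB2-high cells. In TRA2A and in TRA2B the intervals of the 2 highest lines overlapped.

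ESRP1 and ESRP2 were too low for the comparison, with 34 and 26 counts in the 3 lines. ESRP2 was at 1.74 CPM (0.64 to 3.79) in ERBB2-high, 2.07 CPM (0.833 to 4.27) in RARRES2-high and 2.88 CPM (1.53 to 4.92) in FOLR1-high cells, and the intervals overlapped. ESRP1 had 0 counts in ERBB2-high, 30 in RARRES2-high and 4 in FOLR1-high cells, which is 0 CPM (0 to 1.07) in ERBB2-high, 8.88 CPM (5.99 to 12.7) in RARRES2-high and 0.886 CPM (0.241 to 2.27) in FOLR1-high cells. RARRES2-high cells were 10.2-fold above ERBB2-high cells, against a floor of 3 counts there, and 10.02-fold (3.53 to 39.2) above FOLR1-high cells. The first ratio leaves out the counting error of the 30 counts and is no lower limit. This gene is not spread evenly within RARRES2-high cells. The 285 cells with a marker share of 90% or more held 6 counts, 3.32 CPM (1.22 to 7.22), and the 188 cells with a lower share held 24, 15.3 CPM (9.79 to 22.7), so the value for the line depends on the marker limit.

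The 2 parts of the line also differed in CDH1, the epithelial adhesion gene E-cadherin, at 19.4 CPM (13.5 to 26.9) and 74.5 CPM (61.6 to 89.3). A split of the line by CDH1, chosen after these values were seen, gave 26.2 CPM (15.8 to 40.9) of ESRP1 in the 70 cells with a CDH1 count and 4.15 CPM (2.07 to 7.42) in the 403 without one. The cells with CDH1 were deeper, with a median of 9545 against 6064 counts, and the part of depth in this split was not tested. In them ZEB1, a repressor of epithelial genes, was at 11 CPM (4.76 to 21.7), against 30.9 CPM (24.6 to 38.4) in the rest. CLDN3 was at 163 CPM (135 to 195) against 55.8 CPM (47.2 to 65.5), and it is one of the genes that define the FOLR1-high class. The 243 barcodes in no line held 16 ESRP1 counts, 9.96 CPM (5.69 to 16.2). ERBB2-high and FOLR1-high cells had CDH1 at 8.42 and 2.44 CPM. MBNL1 did not show such a split, at 96.5 CPM (75.2 to 122) with and 102 CPM (90.4 to 115) without a CDH1 count. Nor did QKI, at 71.7 CPM (53.5 to 94) and 73.5 CPM (63.6 to 84.6). For ESRP2 the values were 5.51 CPM (1.5 to 14.1) and 1.13 CPM (0.233 to 3.31), on 4 and 3 counts, with overlapping intervals.

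**Figure D4:**
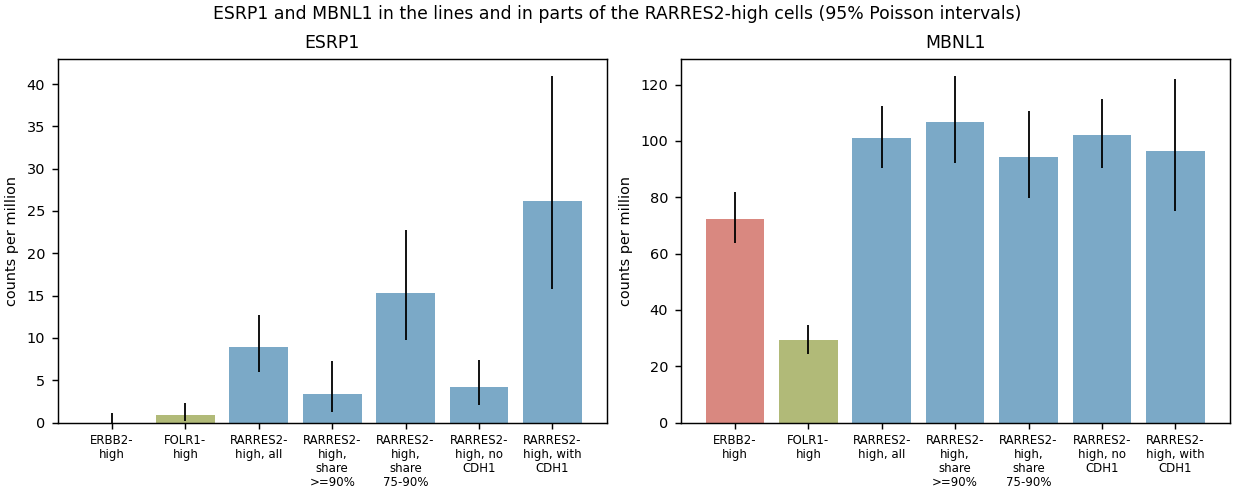
ESRP1 (left) and MBNL1 (right) in CPM in the 3 lines and in parts of the RARRES2-high cells, split by marker share and by presence of a CDH1 count; bars are levels of summed counts and lines 95% Poisson intervals. ESRP1 is higher in RARRES2-high cells of lower marker share and in those with CDH1, whereas the MBNL1 bars of RARRES2-high cells overlap.

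Per cell the rarer regulators were seen seldom. With every cell thinned to 2000 counts, which left out 42, 30 and 32 shallower cells, ESRP1 was found in 2.03% (0.933 to 3.82) of 443 cells of the RARRES2-high line and in 0 of 606 ERBB2-high and 0 of 733 FOLR1-high cells, which allows shares of up to 0.495% and 0.409% when a count of 0 is taken to allow up to 3 cells. Without thinning the share in RARRES2-high cells was 4.86%. SRSF12 was found in 2.97% (1.77 to 4.65) of 606 cells of ERBB2-high and 1.5% (0.751 to 2.67) of 733 cells of FOLR1-high, and in 0 of 443 RARRES2-high cells, which allows up to 0.677% in the same way. QKI was found in 25.6% (22.1 to 29.2) of 606 cells of ERBB2-high, 11.7% (8.89 to 15.1) of 443 cells of RARRES2-high and 8.46% (6.55 to 10.7) of 733 cells of FOLR1-high. MBNL1 was found in 12.4% (9.86 to 15.3) of 606 cells, 19.2% (15.6 to 23.2) of 443 cells and 5.59% (4.04 to 7.51) of 733 cells in the same order of lines. At this depth a cell without a count cannot be read as a cell without the gene. HNRNPA2B1 was found in 69.5%, 76.7% and 68.5% of the thinned cells. For SRSF12, QKI, MBNL1 and HNRNPA2B1 the order of the lines was that of the summed levels.

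Other genes of the splicing pathway were counted by list. Of 48 genes of the core spliceosome, which removes the intron itself, on CPM 7 were higher in ERBB2-high and 12 in RARRES2-high cells, 9 in ERBB2-high and 6 in FOLR1-high cells, and 18 in RARRES2-high and 5 in FOLR1-high cells, and 34 were called in any pair on CPM, 25 of them under both scalings (70.8% and 52.1%, against 74.4% and 63.4% of all genes). By direction these are 14.6% and 25%, 18.8% and 12.5%, and 37.5% and 10.4% of the list, against 29.2% and 18.0%, 38.1% and 12.8%, and 30.1% and 17.2% of all genes. After TMM scaling the counts were 2 and 17, 4 and 13, and 12 and 9, or 4.17% and 35.4%, 8.33% and 27.1%, and 25% and 18.8%, against 22.3% and 23.2%, 22.2% and 21.0%, and 24.2% and 22.5%. The list's median log2 ratio was -0.08, 0.20 and 0.36 in the 3 pairs and -0.30, -0.21 and 0.16 after TMM scaling, with the sign turned in the second pair. Between ERBB2-high and RARRES2-high cells the larger count was therefore in RARRES2-high cells, while the members had theirs in ERBB2-high cells. The 3 largest ratios were those of PLRG1, BUD31 and SNRPA1. PLRG1, of the complex around PRPF19, was at 57.5, 19.2 and 27.9 CPM in ERBB2-high, RARRES2-high and FOLR1-high cells. BUD31 was at 131, 366 and 203 CPM and SNRPA1, a protein of the U2 particle, at 89.8, 249 and 104 CPM, both highest in RARRES2-high cells.

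Of 8 kinases and import factors that act on SR proteins, 4 were called in any pair, all under both scalings (50% each, against 74.4% and 63.4% of all genes). CLK2 was at 6.1, 2.66 and 12 CPM in ERBB2-high, RARRES2-high and FOLR1-high cells, DYRK1A at 29.6, 12.4 and 11.1 CPM and CLK3 at 18.9, 20.1 and 9.52 CPM. Of 41 further splicing regulators, 35 were compared and 17 called on CPM (10 under both scalings), 4 and 2, 8 and 2, and 7 and 2 of them in the 2 directions of the 3 pairs. The share called was 48.6%, and 28.6% under both scalings, against 74.4% and 63.4% of all genes. By direction on CPM it was 11.4% and 5.71%, 22.9% and 5.71%, and 20% and 5.71%, each below that of all genes given above. After TMM scaling the counts were 2 and 3, 3 and 4, and 5 and 6, with the larger side turned in each pair. These are 5.71% and 8.57%, 8.57% and 11.4%, and 14.3% and 17.1%, against 22.3% and 23.2%, 22.2% and 21.0%, and 24.2% and 22.5% of all genes. The 3 largest were CELF2, KHDRBS3 and RBM47. CELF2, the paralog of CELF1, was at 0.29 CPM (0.00735 to 1.62) in ERBB2-high, 16 CPM (12 to 20.9) in RARRES2-high and 0 CPM (0 to 0.817) in FOLR1-high cells, with 1 count in ERBB2-high and 0 in FOLR1-high cells. Against a floor of 3 counts it was 24.1-fold higher in RARRES2-high than in FOLR1-high cells, a ratio that leaves out counting error. KHDRBS3, a paralog of KHDRBS1, was at 15.1, 15.7 and 1.33 CPM, 11.4-fold (4.88 to 32.4) and 11.8-fold (5.08 to 33.6) higher in ERBB2-high and RARRES2-high than in FOLR1-high cells. RBM47, an epithelial regulator, was at 47.4, 11.5 and 108 CPM and highest in FOLR1-high cells, 9.32-fold (6.72 to 13.3) above RARRES2-high cells. The relatives of CELF2 and KHDRBS3 among the members, CELF1 and KHDRBS1, each differed by at most 1.54-fold. CELF2 and KHDRBS3 were named for the largest ratios of their list, so this contrast is in part set by that choice.

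Exons in genes known as targets of the members were read in the same way. Of 12 genes with ESRP-dependent exons 10 were compared for level and 8 called in any pair on CPM, 7 of them under both scalings (80% and 70%, against 74.4% and 63.4% of all genes). The largest ratios were those of PLEKHA1, SLK and ENAH, at 44.4, 9.18 and 45.6 CPM, 150.5, 50.6 and 63.3 CPM and 115, 50.3 and 45.8 CPM in ERBB2-high, RARRES2-high and FOLR1-high cells. Segments could be compared in 5, 7 and 5 of the 12 genes in the 3 pairs, and 0 of these passed the 15-point limit, which 2.12%, 1.22% and 2.71% of all genes passed. An 81-base exon of MAP3K7 was included at 44.3%, 32.3% and 45.3% and a 69-base exon of EXOC7 at 18.7%, 6.29% and 15.9% in the 3 lines in that order. A 204-base variable exon of CD44, the hyaluronan receptor, was included at 5.92%, 10.8% and 12.6%, low in all 3. Of 6 genes with PTBP1-dependent exons all were compared and called on CPM, 4 of them under both scalings (100% and 66.7%, against 74.4% and 63.4% of all genes), with the largest ratios for ACTN1, TPM1 and PKM, at 246, 159 and 48.9 CPM, 226, 1053 and 992 CPM and 1868, 2386 and 708 CPM. Segments passed the limit in 1 of 5, 1 of 5 and 0 of 5 of these genes that could be compared in the 3 pairs, against the same background. A 126-base coding exon of TPM1, which encodes an actin-binding tropomyosin, was included at 33%, 12% and 18%. ERBB2-high cells passed the limit there against both other lines, on 371 counts against 3357 and 3714. Almost no single count named 1 TPM1 transcript for this exon (0 of 3, 1 of 13 and 3 of 19 held it). PKM, pyruvate kinase, included the 167-base exon of its M2 form at chr15:72202454-72202620 at 97.5%, 97.7% and 95.8%, near the same in the 3 lines. Whether a regulator's level bears on these exons was not tested.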

How the data were processed

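The members and gene lists were chosen with earlier results of these data known. Per the series' design text the authors quantified transcripts with Isosceles, and the deposited values are estimated counts per transcript and barcode; Cell Ranger 6.0.1 and GRCh38 stand in the submitters' processing notes with no role given. The aligner, the annotation release and whether reads were collapsed by molecular identifier were not given in the sources used here. Sums per gene entry and barcode were whole numbers, against 49.5% of the single transcript entries (tolerance 0.01).

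Transcript counts were summed by gene entry and line in Python 3.11.15 (numpy 2.4.6, scipy 1.17.1, pandas 2.3.3), rounded where an interval needs a whole number, and scaled to CPM. TMM factors came from edgeR 4.0.16 in R 4.3.3. No count test was run. Levels were compared from 50 counts over the lines, and transcript shares from 50 counts in both lines, without entries that join several genes. All 349 transcripts of the members matched GENCODE 29, which gave exons and coding parts. Doublets were limited by the marker rule alone in the values reported; Scrublet (scanpy 1.11.5, expected rate 0.02), tried as an alternative, called 49 barcodes, 14 of them in a line. Cell thinning used a fixed seed of 0.

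Named with values were the 15 listed regulators, each SR or hnRNP gene past the 1.5-fold limit, the 10 members with the largest transcript share difference (from 100 counts in both lines) and the 3 genes of each pathway list with the largest ratio. Alternatives varied the marker share, the minimum counts, the scaling, the limits, the doublet step and the treatment of divided reads.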

Additional observations from a re-analysis of the deposited data

How the results depend on the processing

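No paired analysis was possible because both groups hold a single library, and the Illumina expression values were not analysed here. Under the alternatives tried, no member's segment difference past the limit changed sign, nor did the largest ratio of any member called on CPM. Other ratios of the members, and the ratios and segments of single list genes, were not followed in this way. With TMM scaling 13 of 27 median log2 ratios of member groups and lists changed sign. Among them were all members, RARRES2-high over FOLR1-high (0.09 to -0.10), and the core spliceosome, ERBB2-high over FOLR1-high (0.20 to -0.21). Of the summary values under the alternatives, 104 stayed within 1.5 times the main value or its interval and 32 moved; of single genes and segments, 399 stayed and 52 moved. The percentages in brackets give the share of all genes called under the same setting, beside which the 45 members compared are to be read. With mitochondrial and ribosomal protein genes left out of the total, 6 members were higher in ERBB2-high than in FOLR1-high cells (24%) and 5 lower (20%), and 2 were higher in RARRES2-high than in FOLR1-high cells (21.4%) and 10 lower (25.5%). With TMM scaling the same counts were 6 (22.2%), 5 (21.0%), 3 (24.2%) and 9 (22.5%), and 4 members were higher in RARRES2-high than in ERBB2-high cells (23.2%). At a marker share of 90%, where 44 were compared, that last count was 1 (16%), and at 60% it was 0 (18.2%), against 2 (18.0%) in the main setting. With the mean of per-cell CPM, 2 members were higher in FOLR1-high than in ERBB2-high cells (13.2%). At a 2-fold limit 10 members were higher in ERBB2-high than in RARRES2-high cells (20.7%) and 0 lower (12.5%), 5 were higher in ERBB2-high than in FOLR1-high cells (25.9%) and 0 lower (8.95%), and 2 were higher in RARRES2-high than in FOLR1-high cells (21.7%). In any pair 15 of 48 core spliceosome genes and 7 of 35 other splicing regulators were called at that limit (57.7%).

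At a 30-point limit 0 members passed for transcripts or segments in any pair, where at most 1.04% of all genes did. At 10 points 5 of 34 members passed for transcripts between ERBB2-high and RARRES2-high cells (6.83%) and 3 of 35 between ERBB2-high and FOLR1-high cells (5.92%), where 2 of 29 passed for segments (2.53%). With whole estimates only, 5 of 26, 1 of 27 and 6 of 26 members passed for transcripts in the 3 pairs (6.01%, 5.12% and 7.74%), against 2 of 34, 1 of 35 and 4 of 34 in the main setting, and 3 of 20, 0 of 21 and 2 of 20 for segments (3.02%, 2.06% and 4.03%), against 2 of 28, 1 of 29 and 2 of 28; the cause was not tested. Reading single counts that name 1 transcript was chosen after seeing the data. This reading gave differences of -18.9 and 21.7 points for HNRNPA2B1, 16.5 for HNRNPC, 28.4 for HNRNPH3, and -10.6 and 8.87 for RBFOX2. The intervals behind the -18.9 points overlapped, and the 16.5 points rested on too few counts to order the lines. For the SRSF5 transcript the same reading gave 27.8 points with overlapping intervals, or 13.9 points of all single counts. ESRP1 was found in 4.86% of RARRES2-high cells without thinning, and SRSF12 in 1.39% of ERBB2-high cells at 1000 counts and 7.87% without thinning, so a share per cell depends on depth.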
